A study of Mus musculus with 35 samples.

Results

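The transcripts of 10 core circadian clock genes, Per1, Per2, Per3, Arntl, Clock, Nr1d1, Nr1d2, Dbp, Cry1 and Cry2, were followed in mouse hippocampus after kainic acid. They were taken by symbol from the 32544 genes in the count tables, and all 10 were present. The list was not ranked or filtered by measured values, but earlier results of these data were known when it was chosen. The mice were young adult male C57BL/6JOlaHsd animals without a transgene. They received kainic acid into the amygdala (KA), which starts status epilepticus, or the PBS vehicle (PBS), and the hippocampus was taken 24 hours or 2 weeks later. Per the methods, KA mice also received lorazepam to limit the seizures, and whether PBS mice received it is not stated. KA may thus stand for kainic acid, the seizures and that drug together. Each library came from 1 mouse and was made either from total RNA (input) or from RNA pulled down with an antibody against N6-methyladenosine (m6A). The m6A libraries came from 5 KA and 3 PBS mice at 24 hours and from 6 KA and 5 PBS mice at 2 weeks. Input libraries with at least 100000 counts came from 3 KA mice and 1 PBS mouse at 24 hours and from 6 KA and 3 PBS mice at 2 weeks. The hour of day at which tissue was collected is not in the sample labels.

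The mammalian clock is a feedback loop of transcription in nearly every cell. CLOCK and ARNTL (also called BMAL1) bind E-box sites and switch on the Per and Cry genes, whose proteins return to the nucleus and repress them. Nr1d1 and Nr1d2 encode the REV-ERB repressors that act on Arntl, and Dbp encodes an activator that reads D-box sites and is among the most strongly cycling transcripts of many tissues. In the hippocampus these transcripts rise and fall over the day, Per1 and Per2 also respond to neuronal activity and to glucocorticoids, and clock genes have been studied for the daily timing of seizures.

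Sites of these kinds were looked for around the start sites. The stretches below are from RefSeq (GRCm38.p6, the assembly also called mm10), read on the strand of each gene and upstream of the annotated start, with the searched motif in capitals. They show an E-box in Per1, in Cry1 and in Tef, a relative of Dbp whose values appear below, and the D-boxes of Per3.
Per1, E-box, chr11:69098771-69098800, plus strand: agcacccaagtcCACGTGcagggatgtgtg
Cry1, E-box, chr10:85185097-85185126, minus strand: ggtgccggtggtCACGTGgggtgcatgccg
Tef, E-box, chr15:81802534-81802563, plus strand: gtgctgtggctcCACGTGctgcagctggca
Per3, D-box, chr4:151044804-151044882, minus strand: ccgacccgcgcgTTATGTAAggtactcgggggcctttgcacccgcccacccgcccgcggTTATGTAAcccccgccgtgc
The motifs were searched as written and on the other strand in windows from 250 bases before to 50 bases after the start. The RefSeq table holds such windows for 9 of the 10 members, some with more than 1 start (13 windows). It has none for Per2, which was not searched. The E-box CACGTG stood in 2 of these 13 windows, those of Per1 and Cry1, and in 7.15% of all 32851 windows. The D-box TTATGTAA stood in 1 of the 13, that of Per3, which held it 2 times, and in 0.938% of all windows. The sequence AGGTCA, the core of the site read by REV-ERB and ROR proteins, stood in 4 of the 13, those of Per1, Arntl, Clock and Nr1d2, and in 16.3% of all windows. The sequence TGACGT, the core of the cAMP response element, stood in 1 of the 13, a window of Per1, and in 7.51% of all windows. Such a match describes letters only and does not show that a factor binds there.

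The libraries differed in depth and in origin. Total counts ran from 1652933 to 34564536 in the 19 m6A libraries and from 3057578 to 12694434 in the 13 input libraries used, while 3 further input libraries held 3171 to 34486 counts and entered no main comparison. The lowest count of a member in the libraries used was 13, so every level below rests on counted reads in each mouse. The column names place the m6A libraries in 3 sets, labelled 3, 4 and 5. Set 3 holds KA mice alone, and none of these 3 sets holds KA and PBS mice of both times. Input columns either start with the word Input or carry no prefix, and were taken as 2 input sets by that form. All PBS input libraries used lie in the unprefixed set, which holds KA and PBS mice of both times. The columns of 8 libraries in it do not name their assay and were read as input by elimination, because the same mouse also has a library with a numeric prefix. Among the 8 PBS m6A libraries, 5 of the 10 members did not overlap between set 4 (4 mice) and set 5 (4 mice), beside 37.9% of the 17440 genes tested. Per1 was at 36.1 to 51.7 CPM (counts per 1000000 counts of the library) in set 4 and at 16.1 to 24.9 in set 5, and Clock at 86.8 to 112 and 188 to 256. The set, the handling of its libraries and its mice cannot be told apart. Hippocampal markers such as Prox1 and Neurod6 were detected in every library used, with the 8 markers summing to 433 to 2106 CPM. One KA mouse at 24 hours, mouse 8, stood apart in both of its libraries, with 8 hippocampal markers at 469 CPM in its m6A library against 807 to 1516 in the other 4, and 7 neuronal markers at 1709 against 3099 to 4863 CPM.

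**Figure D1:**
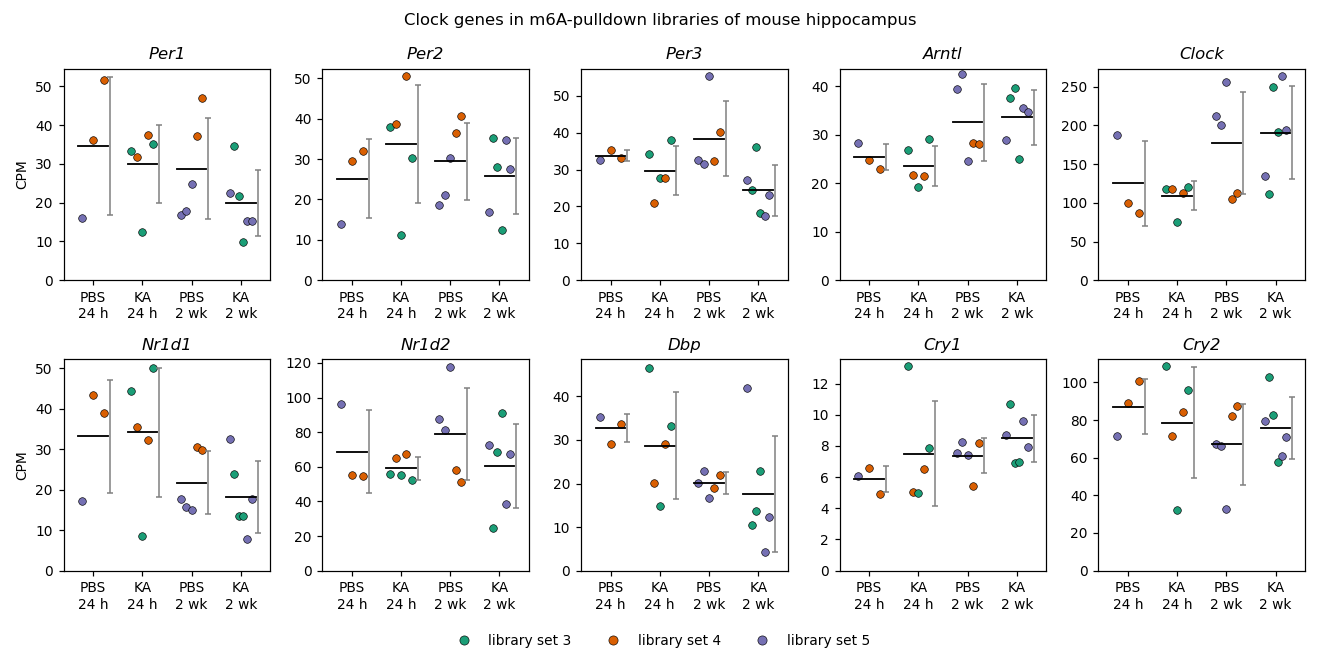
CPM (y axis, from 0) of the 10 clock genes in m6A-pulldown libraries of PBS and KA mice at 24 hours and 2 weeks, 1 point per mouse coloured by library set, with the mean (black line) and SD (grey bar) of each group. KA and PBS mice overlap for every gene at both times, and PBS mice of set 4 lie apart from those of set 5 for Per1, Clock, Nr1d1, Nr1d2 and Cry2.

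At 24 hours after KA, the question was whether clock transcripts differ in the m6A-bound RNA soon after status epilepticus. None of the 10 members passed the threshold in edgeR's quasi-likelihood test (adjusted P under 0.05 over all 16470 genes tested), and none passed at an unadjusted P under 0.05, where 5.31% of all genes did. Over all genes 0.00607% were called, which is 1 gene. KA and PBS mice overlapped for all 10 members, while 2.62% of all genes lay wholly higher and 1.09% wholly lower in KA mice. DESeq2 called 0 of the 10 members (0.978% of all genes), and voom with quality weights called 0 of 10 (6.80%). The members' log2 fold changes ran from -0.28 for Per1 to 0.35 for Per2, with a median of -0.20 beside 0.08 for all genes tested, and 2 of 10 were above 0.

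Among the repressor genes, Per1 and Per2 were spread more widely between mice than Per3. Per2 was at 13.9, 29.5 and 32.0 CPM in PBS mice and at 11.2, 30.2, 37.9, 38.7 and 50.4 CPM in KA mice, a log2 fold change of 0.35 ± 0.40 (SE). Per1 was at 16.1, 36.1 and 51.7 CPM in PBS mice and at 12.5, 31.8, 33.3, 35.1 and 37.4 CPM in KA mice (log2 fold change -0.28 ± 0.39, SE). In both genes the lowest KA value was that of mouse 8 and the lowest PBS value that of the only set 5 library. Cry1 ran from 4.94 to 6.60 CPM in PBS and 4.97 to 13.1 CPM in KA mice, and Cry2 from 71.5 to 101 and 32.2 to 109 CPM. Per3 was at 32.5, 33.3 and 35.4 CPM in PBS mice and at 20.9, 27.6, 27.7, 34.4 and 38.1 CPM in KA mice (log2 fold change -0.19 ± 0.27, SE). Within set 4 alone, with 2 KA and 2 PBS mice, Per3 had a log2 fold change of -0.62 ± 0.19 (SE; edgeR adjusted P = 0.132, with 2.11% of all genes called there).

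The activators and the REV-ERB genes at 24 hours overlapped as well. Arntl was at 23.0 to 28.2 CPM in PBS and 19.2 to 29.0 CPM in KA mice, and Clock at 86.8 to 188 and 75.6 to 120 CPM. Nr1d1 was at 17.3 to 43.5 CPM in PBS and 8.68 to 50.2 CPM in KA mice, and Nr1d2 at 54.6 to 96.4 and 52.6 to 67.5 CPM. Dbp was at 29.1, 33.6 and 35.3 CPM in PBS mice and at 14.8, 20.1, 29.0, 33.3 and 46.5 CPM in KA mice. Without mouse 8 the log2 fold change was 0.54 ± 0.32 (SE) for Per2 and -0.13 ± 0.36 for Per1, Nr1d1 turned from -0.05 to 0.18, and the lowest edgeR adjusted P of a member was 0.746.

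In total RNA at 24 hours only 1 PBS library, that of mouse 1, was deep enough, so the spread was taken from all 13 input libraries and that mouse was assumed to vary like the others. No member was called, and neither was any of the 17644 genes tested (0% called), although 9.23% of all genes and 1 of the 10 members, Per2, had an unadjusted P under 0.05. Per2 was at 13.8 CPM in the PBS mouse and at 14.3, 26.9 and 28.7 CPM in KA mice, a log2 fold change of 1.03 ± 0.38 (SE; edgeR adjusted P = 0.450). All 3 KA mice lay above the PBS mouse, mouse 8 by very little, and without mouse 8 the value was 1.23 ± 0.34 (edgeR adjusted P = 0.0795). DESeq2 called 0 of 10 members (1.17% of all genes). voom with quality weights called Per2 (log2 fold change 1.22, adjusted P = 0.0274, with 6.10% of all genes called). The 2 KA mice set against the PBS mouse within the input set of unprefixed columns gave 1.21 ± 0.22 (SE; edgeR adjusted P = 0.0141, with 13.0% of all genes called), a fit of 3 libraries whose spread rests on those 2 KA mice. The 5 astrocyte markers summed to 721 CPM in the PBS mouse, to 361 in mouse 8 and to 1548 and 2103 in the other KA mice, and their part in the Per2 values was not tested. The other 9 members ran from a log2 fold change of -0.42 ± 0.34 (SE) for Nr1d2 to 0.47 ± 0.32 for Per1. Arntl was at 28.9 CPM in the PBS mouse and at 16.3, 16.7 and 20.7 CPM in KA mice (log2 fold change -0.39 ± 0.24, SE).

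**Figure D2:**
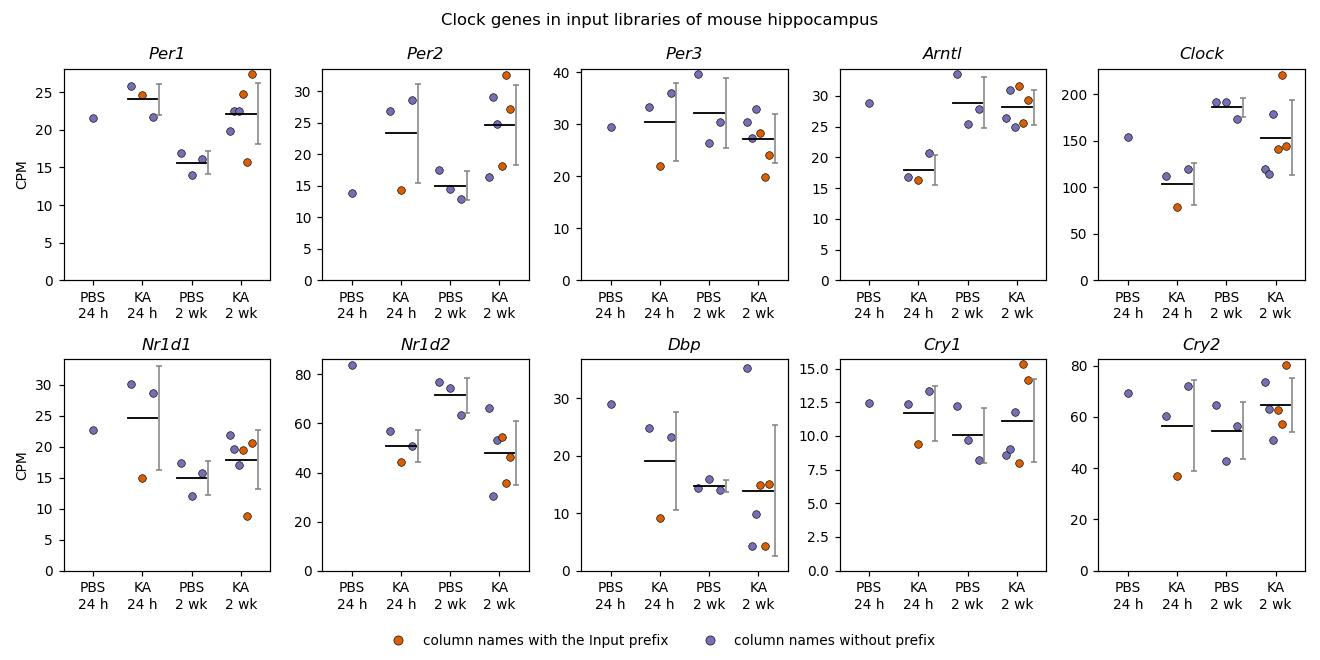
CPM (y axis, from 0) of the 10 clock genes in input libraries with at least 100000 counts, 1 point per mouse coloured by the form of its column name, with mean (black line) and SD (grey bar) where a group has more than 1 mouse. KA mice at 2 weeks lie mostly above PBS mice for Per1 and Per2 and below them for Nr1d2, and Dbp runs from 4.22 to 35.2 in KA mice at 2 weeks against 14.0 to 16.0 in PBS mice.

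At 2 weeks, when the model has spontaneous seizures, no member was called in total RNA and neither was any of the 13752 genes tested (0% called). At an unadjusted P under 0.05 stood 3 of the 10 members, Per1, Per2 and Nr1d2, where 14.1% of all genes did. Per2, which encodes a repressor of the loop, was at 12.9, 14.5 and 17.5 CPM in PBS mice and at 16.4 (lowest), 26.0 (median) and 32.6 CPM (highest) in 6 KA mice. The log2 fold change was 0.75 ± 0.22 (SE; edgeR adjusted P = 0.266), and the groups overlapped through KA mouse 21. Per1 was at 14.0, 16.1 and 16.9 CPM in PBS mice and at 15.7, 22.5 and 27.5 CPM (lowest, median, highest) in KA mice, with a log2 fold change of 0.54 ± 0.20 (SE; edgeR adjusted P = 0.296). KA mouse 7 alone lay within the PBS range. Nr1d2 was at 63.5, 74.4 and 76.8 CPM in PBS mice and at 30.6, 49.8 and 66.2 CPM (lowest, median, highest) in KA mice, with a log2 fold change of -0.55 ± 0.21 (SE; edgeR adjusted P = 0.296). KA mouse 21 alone reached the PBS range.

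Of these, Per2 was called by voom with quality weights (log2 fold change 0.76, adjusted P = 0.0424, with 2.49% of all genes called), and DESeq2, which called 0 of 10 members (0.822% of all genes), gave it an adjusted P of 0.0992. Within the input set of unprefixed columns, which holds 3 KA and 3 PBS mice, the values were 0.69 ± 0.25 (SE) for Per2, 0.51 ± 0.18 for Per1 and -0.48 ± 0.23 for Nr1d2, with edgeR adjusted P of 0.236, 0.232 and 0.335. The 5 astrocyte markers, which include Gfap, summed to 652 to 1047 CPM in PBS and 1173 to 3366 CPM in KA mice, and the 11 glucocorticoid-responsive genes to 289 to 357 and 329 to 488 CPM. Their part in these values was not tested. In bulk tissue, fewer cells of a type and less RNA per cell cannot be told apart. The remaining members ran from a log2 fold change of -0.26 ± 0.17 (SE) for Clock to 0.28 ± 0.27 for Nr1d1 and 0.28 ± 0.17 for Cry2. Arntl lay at 25.4 to 33.5 CPM in PBS and 24.9 to 31.7 CPM in KA mice, a log2 fold change of 0.00 ± 0.15 (SE).

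In the m6A libraries at 2 weeks no member was called either, nor any of the 16157 genes tested (0% called), and 1 member, Per3, had an unadjusted P under 0.05, where 5.01% of all genes did. Per3 was at 31.5, 32.3, 32.6, 40.1 and 55.5 CPM in PBS mice and at 17.3, 23.8 and 36.2 CPM (lowest, median, highest) in 6 KA mice. Of the KA mice, 5 lay below every PBS mouse and mouse 5 did not. The log2 fold change was -0.59 ± 0.23 (SE; edgeR adjusted P = 0.875), and -0.74 ± 0.31 within set 5 (3 KA against 3 PBS mice; adjusted P = 0.956). DESeq2 called 0 of 10 members (0.0932% of all genes) and voom 0 of 10 (0.0124%). In total RNA of that time Per3 ran from 26.5 to 39.8 CPM in PBS and 19.8 to 33.0 CPM in KA mice (log2 fold change -0.21 ± 0.18, SE). Per1 and Per2, higher on average in total RNA of KA mice, had m6A log2 fold changes of -0.48 ± 0.32 and -0.14 ± 0.28 (SE). With the library set as a block the value of Per2 turned to 0.22, and that of Per1 was -0.10 ± 0.36. KA and PBS mice overlapped for all 10 members in these libraries and in input at 2 weeks. Of all genes, 0.260% lay wholly higher and 0.334% wholly lower in m6A, and 2.64% and 3.80% in input.

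**Figure D3:**
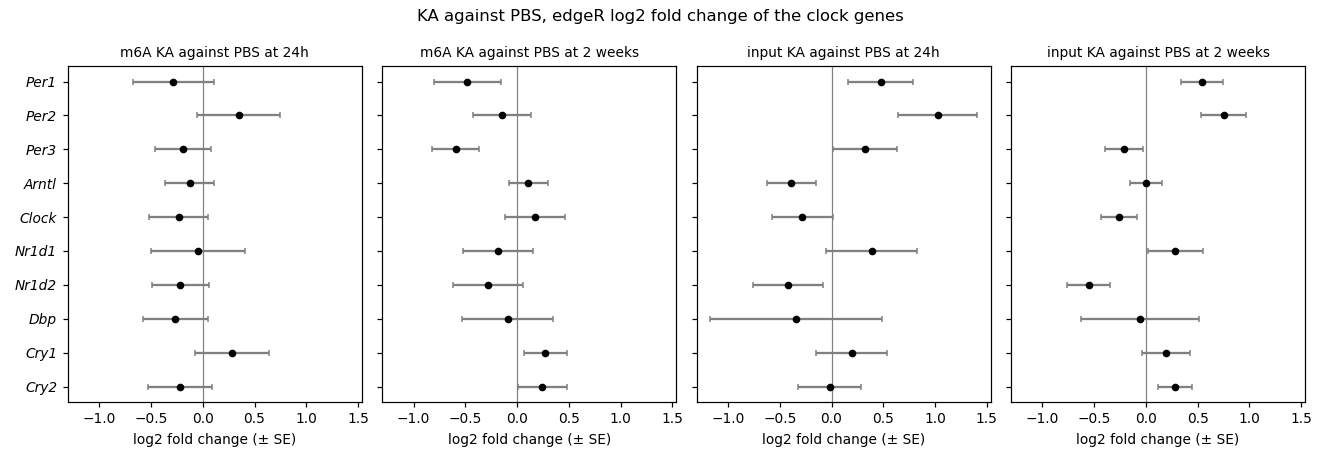
edgeR log2 fold change of KA against PBS (x axis, points, with SE bars) for the 10 clock genes (y axis) in m6A and input libraries at 24 hours and 2 weeks. No point passes an adjusted P of 0.05, the largest value is that of Per2 in input at 24 hours (1.03), and Per2 in input at 2 weeks follows at 0.75.

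Dbp, the D-box activator, was spread widely between KA mice at 2 weeks, and its group means differed by less than their error. In total RNA it was at 14.0, 14.4 and 16.0 CPM in PBS mice, and at 4.22 in mouse 7, 4.37 in mouse 42, 9.81 in mouse 5, 15.0 in mouse 6, 15.0 in mouse 9 and 35.2 in mouse 21. In m6A libraries PBS mice lay between 16.6 and 22.8 CPM, and the same KA mice at 4.19 (mouse 7), 10.4 (mouse 42), 13.8 (mouse 5), 22.8 (mouse 6), 12.2 (mouse 9) and 42.0 (mouse 21). Mouse 7 was lowest and mouse 21 highest in both. The 5 choroid plexus markers were also highest in mouse 21, with a sum of 1614 CPM in input against 217 to 697 in the other 5 KA mice and of 2341 CPM in m6A against 273 to 1053, and their part in the Dbp values was not tested. The log2 fold change of the mean was -0.06 ± 0.57 (SE) in input and -0.09 ± 0.44 in m6A, and without mouse 21 it was -0.52 ± 0.42 and -0.55 ± 0.37, with edgeR adjusted P of 0.590 and 0.790.

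The SD of log2 CPM of Dbp across the 6 KA mice at 2 weeks was 1.16 in input, above that of 99.2% of 11777 genes with a mean of at least 5 CPM, and 1.12 in m6A, above 97.7% of them. Across PBS mice it was 0.10 in input and 0.18 in m6A, above 19.7% and 8.69% of the genes. Without mouse 21 the SD in KA mice was 0.90 and 0.89, above 98.5% and 93.5% of the genes. The spread itself was compared by an exact permutation test on absolute deviations from the group median, chosen after the values were seen and run for every gene of each fit. For Dbp it gave a two-sided P of 0.0238 in input (6 against 3 mice) and 0.130 in m6A (6 against 5), and adjusted over all 17644 and 17440 genes 0.923 and 1.00, so it failed the correction. The test had only 84 possible splits in input and 462 in m6A, which sets a floor under P. At that floor a gene could pass the correction only if a great many other genes stood there too. The adjusted P thus cannot decide whether the spread differed. In a group of 3 mice 1 deviation from the median is always 0, which is not so for 6 mice. The test thus leans toward a larger spread in KA mice in input, and its unadjusted P there is to be read with that limit. Of the 10 members, 1 (Dbp) in input and 0 in m6A had an unadjusted P under 0.05, beside 3.80% and 2.44% of all genes, and 0% of genes passed after adjustment. The percentiles of the other members in KA mice at 2 weeks ran from 7.64 (Arntl) to 84.0 (Nr1d1) in input and from 18.2 (Cry1) to 87.8 (Nr1d1) in m6A.

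The labels give both libraries of a mouse the same animal number, so the question was whether the level of a clock gene in 1 library of a mouse went with that in the other. For 9 mice at 2 weeks with both libraries (6 KA, 3 PBS), deviations of log2 CPM from the group means were correlated between input and m6A, with exact permutation tests over the 9 mice, run for the 16319 genes measured in both and adjusted over all of them. This comparison was added after the values were seen. No member passed after adjustment, by r or by rho, where 1.27% and 0.0123% of all genes did. At an unadjusted P under 0.05 stood 5 of 10 members by r, beside 18.0% of all genes, and 5 of 10 by rho, beside 13.8%. Dbp had r = 0.91 and rho = 0.85 (two-sided exact permutation P = 0.00337 and 0.00607, adjusted P = 0.0870 and 0.162), above the r of 98.4% of all genes. Nr1d1 had r = 0.85 and rho = 0.87 (exact permutation P = 0.00244 and 0.00451, adjusted P = 0.0769 and 0.149), above 95.8% of all genes. Clock and Nr1d2 had r = 0.77 and 0.78, above 91.0% and 91.1% of all genes (exact permutation adjusted P = 0.157 and 0.152), and Per2 had r = 0.68 (exact permutation adjusted P = 0.270). The other members ran from r = -0.20 for Cry1 to 0.51 for Per3, and the median over all genes was 0.31. Without the 2 mice farthest from the median, 7 and 21 for Dbp, r was 0.69 for Dbp, 0.79 for Nr1d1, 0.56 for Clock, 0.30 for Nr1d2 and 0.12 for Per2, and of these only Nr1d1 had an exact permutation P under 0.05 (0.0304, 7 mice). Leaving out the extreme input values also narrows the range over which r is taken. Thus 7 mice cannot show whether the relations for Dbp, Clock, Nr1d2 and Per2 rest on the mice left out. Within m6A set 5 (6 mice) r was 0.99 for Dbp and 0.92 for Nr1d1 (exact permutation P = 0.0222 and 0.00278), and within the input set of unprefixed columns (6 mice) 0.97 and 0.78 (exact permutation P = 0.00278 and 0.0167). These P values were not adjusted. The other members ran from r = -0.02 (Cry1) to 0.70 (Clock) in set 5 and from -0.57 (Cry1) to 0.78 (Nr1d2) in the unprefixed set. Mouse 21 and the 3 PBS mice are in both, so these are not separate checks.

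The KA mice with the lowest Dbp, 7 and 42, were also apart for some other clock outputs but not for all, named here after their values were seen. Tef and Hlf encode activators of the same PAR bZIP family as DBP, and Nfil3 encodes the repressor that competes with them at D-box sites. Hlf in total RNA was at 32.9 and 37.5 CPM in mice 7 and 42, at 61.5 to 85.2 CPM in the other 4 KA mice and at 72.7 to 119 CPM in PBS mice, and in m6A at 33.6 and 32.2 CPM against 68.1 to 121 and 81.9 to 118 CPM. Tef in total RNA was at 66.1 and 67.7 CPM in mice 7 and 42 against 87.3 to 114 CPM in the other KA mice and 105 to 129 CPM in PBS mice. In m6A libraries Tef was lowest in mouse 7, at 53.1 CPM, but mouse 42, at 86.0 CPM, lay within the 68.5 to 115 CPM of the other KA mice. Nfil3 in total RNA was at 8.69 and 5.93 CPM in mice 7 and 42 against 3.18 to 7.94 CPM in the other KA mice. Mouse 21, with the highest Dbp, was within the range of the other KA mice for Hlf in both assays. It was the highest KA mouse in both assays for Tef and Nr1d1. In m6A its Tef was at 115 CPM against at most 88.9 CPM in the other KA mice, and its Nr1d1 at 32.5 against at most 23.9 CPM. In input its lead was smaller for both genes. For Nr1d2 it was the highest KA mouse in input, at 66.2 CPM, but not in m6A, where mouse 6 was higher. Nr1d2 was lowest in mice 7 and 42 in both assays, at 35.9 and 30.6 CPM in input and 38.5 and 24.9 CPM in m6A. Per2 was highest in that pair, at 32.6 and 29.0 CPM in input and 34.8 and 35.3 CPM in m6A, and lowest in mice 21 and 6, at 16.4 and 18.1 and at 16.8 and 12.3 CPM. Nr1d1 and Per1 split the pair. Nr1d1 was lowest in mouse 7, at 8.82 CPM in input and 7.78 CPM in m6A. Mouse 42, at 19.7 and 23.9 CPM, lay within the range of the other KA mice. Per1 in input was lowest in mouse 7 among KA mice, at 15.7 CPM, and in m6A it was highest in mouse 42, at 34.6 CPM. Mouse 7 lies in m6A set 5 and mouse 42 in set 3, and they lie in different input sets. The 5 astrocyte markers summed to 1600 CPM in mouse 7 and 3366 in mouse 42 in input, and to 2453 in mouse 21 and 1173 to 1381 in the other 3 KA mice. The part of these cells in the values was not tested.

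**Figure D4:**
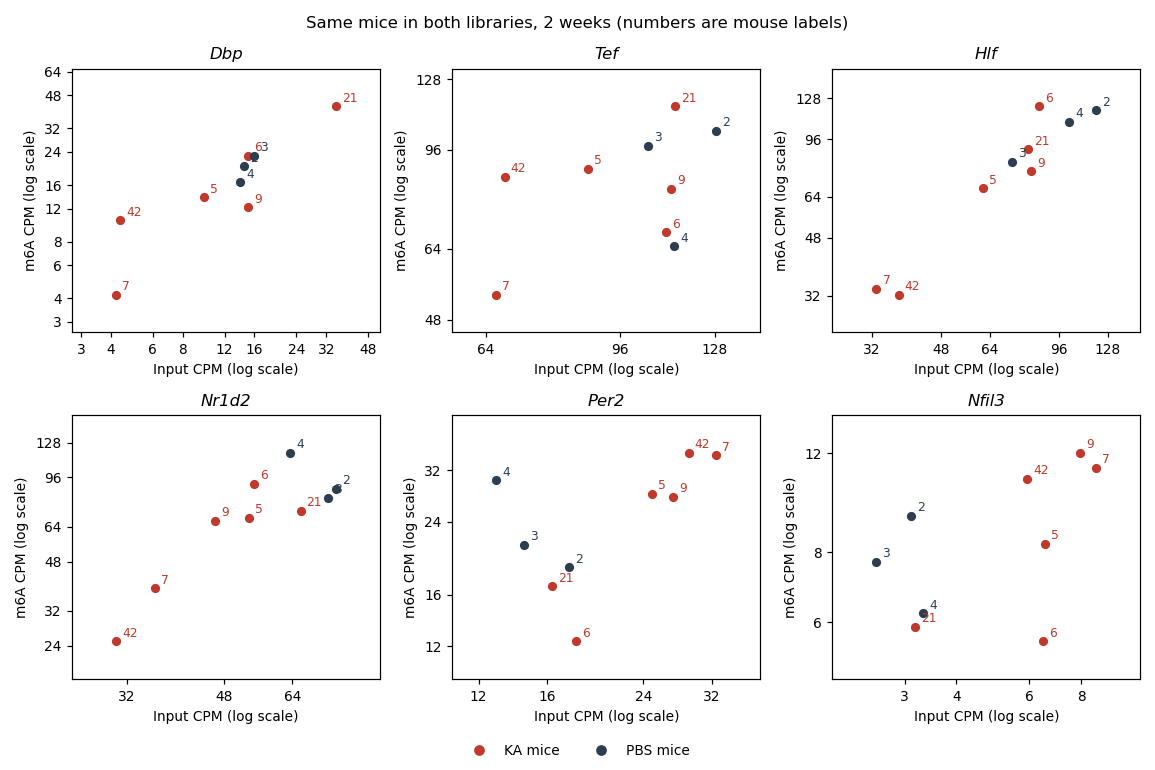
CPM in input (x axis, log scale) against m6A libraries (y axis, log scale) of the 9 mice with both libraries at 2 weeks, for Dbp, Tef, Hlf, Nr1d2, Per2 and Nfil3, 1 point per mouse with its label number, KA in red and PBS in dark blue. KA mice 7 and 42 lie at the low end of both axes for Dbp, Hlf and Nr1d2 and at the high end for Per2, and mouse 21 is the highest for Dbp in both.

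The wider clock list held 28 further genes, among them the other E-box, ROR and PAR bZIP factors, the casein kinases and the F-box proteins that degrade CRY. None passed the adjusted threshold in any of the 8 comparisons run with edgeR. At an unadjusted P under 0.05 there were 3 of 28 in m6A at 24 hours, 1 of 28 in m6A at 2 weeks, 3 of 28 in input at 24 hours and 5 of 27 tested in input at 2 weeks, where the shares of all genes were those given above. The median log2 fold change of the list was 0.00, -0.04, -0.01 and -0.07 in these comparisons. Nfil3, named after its values were seen, had log2 fold changes of 1.31 in m6A and 1.29 in input at 24 hours, of 1.14 in input at 2 weeks and of 0.05 in m6A at 2 weeks (edgeR adjusted P = 0.643, 0.519, 0.242 and 0.976). In total RNA at 2 weeks it lay at 2.57 to 3.32 CPM in PBS mice and at 3.18 to 8.69 CPM in KA mice, with 5 of 6 KA mice above every PBS mouse, and in m6A the KA range, from 5.56 CPM upward, took in the PBS range of 6.23 to 11.4 CPM. Of the genes that neuronal activity induces, such as Fos, 10 of 10 had a log2 fold change above 0 at 24 hours in both assays, with medians of 1.49 in m6A and 1.56 in input beside 0.08 and 0.27 over all genes, and none passed the adjusted threshold. In m6A at 2 weeks 1 of 10 was above 0 (median -0.29), and in input at 2 weeks 6 of 8 tested were (median 0.43). The same 10 genes were all above 0 in PBS mice at 2 weeks against PBS mice at 24 hours in m6A (median 1.33).

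The KA effect in m6A libraries at 2 weeks was set against that at 24 hours by an edgeR interaction test, which called 0 of 10 members (0.00573% of 17440 genes called), and none had an unadjusted P under 0.05 (2.45% of all genes). DESeq2 called 0 of 10 (0.0291% of all genes). The interaction values ran from -0.49 ± 0.49 (SE) for Per2 to 0.46 ± 0.38 for Cry2. PBS mice of the 2 time points were compared too, since clock transcripts follow the hour of collection. No member was called (0 of 17440 genes, 0% called), none had an unadjusted P under 0.05 (1.63% of all genes), and DESeq2 called 0 of 10 (0.0116%). Dbp had the largest difference, at 29.1, 33.6 and 35.3 CPM at 24 hours and at 16.6, 18.9, 20.2, 21.9 and 22.8 CPM at 2 weeks, groups that did not overlap, as for 1.05% of all genes in that direction (log2 fold change -0.72 ± 0.47, SE). Choroid plexus markers, 5 genes including Ttr, differed between the same mice, with sums of 45 to 596 and 212 to 1770 CPM, and their part in the Dbp values was not tested.

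The pulldown was set against total RNA in PBS mice at 2 weeks to see how far each clock transcript was recovered relative to all genes. None of the 10 members was called, beside 1.12% of 15128 genes, and DESeq2 called 0 of 10, beside 4.89%. Per2 (log2 difference 0.74 ± 0.31, SE) and Cry1 (-0.68 ± 0.24) had an unadjusted P under 0.05, as did 16.9% of all genes, with edgeR adjusted P of 0.268 and 0.217. Per2 and Dbp were higher in every m6A library than in every input library, where 16.7% of all genes were, and no member lay wholly lower, where 3.13% did. With the mouse as a block, which uses the 3 PBS mice that have both libraries, the values were 0.37 ± 0.27 for Per2 and -0.61 ± 0.24 for Cry1. The change of m6A over input with KA at 2 weeks was -1.03 ± 0.44 (SE) for Per1 and -0.89 ± 0.40 for Per2 (edgeR adjusted P = 0.807 for each; 0% of 16141 genes called by edgeR and 0.0248% by DESeq2). Per1 and Per2 stood under an unadjusted P of 0.05, as did 4.06% of all genes. With the mouse as a block they were -0.53 ± 0.35 and -0.56 ± 0.26 (adjusted P = 0.875 for each). The 2 PBS mice left out by the block, 50 and 78, are those of set 4, with the highest Per1 and Per2 among the PBS m6A libraries at 2 weeks.

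Arntl, the activator, was correlated with the other 9 members over deviations from the group means in all 19 m6A libraries. No pair passed after adjustment over the 9 pairs (permutation test with 100000 resamples). The largest values were r = -0.37 and rho = -0.29 for Per1 (adjusted P = 0.552 and 0.691) and r = -0.35 and rho = -0.39 for Per2 (adjusted P = 0.552 and 0.651). Without the 2 libraries farthest from the median of Arntl, r was -0.35 and -0.30. With library size scaling in place of TMM, r was -0.0093 for Per1 and 0.11 for Per2, and the largest values were 0.47 for Cry1 and 0.46 for Cry2 (permutation test adjusted P = 0.198 for each). Within sets the Per1 value took both signs, with r = 0.69 in set 3, 0.90 in set 4 and -0.88 in set 5 (6 libraries in each, exact permutation P = 0.143, 0.0250 and 0.0458, not adjusted over the 27 such tests). Deviations were taken there from the mean of each group within the set, so they are not independent, and the permutation treated them as free. In set 4 each group holds 2 mice, whose deviations mirror each other. Its r and P therefore rest on fewer independent values than 6. Over all 19 m6A libraries the genes most like Per1 in log2 CPM were Tnrc18 (r = 0.96), Crtc1 (0.95) and Cnot3 (0.95), those most like Dbp were Slc25a11 (0.82), Wdr6 (0.82) and Parm1 (0.80), and those most like Arntl were Slc39a12 (0.86), Bbx (0.85) and Ncam2 (0.83). These were the highest of 9774 genes with a mean of at least 10 CPM, given as a description, and the libraries share the sets described above.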

How the data were processed

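The authors deposited raw read counts per gene symbol for each of 4 lanes, and 140 columns were added up over lanes to give 35 libraries (8 further columns were not used). Submitters' processing notes name mm10. Aligner, counter and strand setting: not given in the sources used here. Overlapping genes may therefore share reads. Columns with a numeric prefix were read as m6A, and 8 libraries without prefix as input, by elimination against the 8 libraries whose columns name the assay and the labels of each mouse. Groups came from the sample labels, and P values measure the spread between mice of a group. CPM is the count per 1000000 of a library's total counts. Fits used edgeR 4.0.16 in R 4.3.3 (TMM, filterByExpr, robust quasi-likelihood, Benjamini-Hochberg over all genes, threshold 0.05), with DESeq2 1.42.0, voom in limma 3.58.1, library size scaling, no filter, the library set or the mouse as a block, and each library left out as alternatives. The main edgeR fits, the DESeq2 fits and the voom fits of KA against PBS were tested on simulated data, and the other alternatives were not. The SE is the absolute log2 fold change over the square root of F. Correlations and plots used Python 3.11.15, scipy 1.17.1 and matplotlib 3.10.9.

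The members and the gene lists were chosen with earlier results of these data known. The text names all members, wider clock and context genes (glucocorticoid-responsive and activity-induced lists) past the threshold (at most 5 and 3 per comparison), and the 3 genes most like Per1, Dbp and Arntl. For any other gene the text says that its values were already known. In 12 mice with both libraries, the labels pair input and m6A, and their deviations over all genes correlated at -0.04 to 0.88 (median 0.36). The highest value was that of KA mouse 8 at 24 hours. The lowest, -0.04 and -0.01, were those of PBS mice 2 and 4 at 2 weeks, and PBS mouse 3 had 0.20. These are the PBS mice of the same-mouse comparison, and for mice 2 and 4 the pairing rests on the labels alone. No pair of libraries agreed within sampling noise. Counts limit precision by counting error only.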

Additional observations from a re-analysis of the deposited data

Results flagged for a closer look

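The rule took groups of 4 to 10 libraries, and those it reached hold 5 or 6. In them 4 of 40 combinations of member and group held 1 mouse far from the rest (Dixon's criterion at the 95% level). Chance meets it in about 1 of 20 for independent, normally distributed values, and members measured in the same mouse are not independent. No share over all genes is set beside this count. Dbp in total RNA of KA mice at 2 weeks was at 35.2 CPM in mouse 21, with the other 5 mice between 4.22 and 15.0 CPM. In m6A libraries of KA mice at 24 hours, mouse 8 was at 12.5 CPM for Per1 against 31.8 to 37.4 CPM in the other 4, and at 75.6 CPM for Clock against 113 to 120 CPM. Cry1 in m6A libraries of PBS mice at 2 weeks was at 5.45 CPM in mouse 50, with the other 4 mice between 7.45 and 8.24 CPM. Mouse 8 is the animal whose neuronal and hippocampal markers were also low in both of its libraries, and their part in these values was not tested.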

How the results depend on the processing

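The number of clock genes called, 0 in each of the 8 edgeR comparisons, stayed at 0 in all 86 refits without 1 library (lowest 0, highest 0 in each comparison) and in 40 of 43 other refits. It was 1, always Per2, with voom for input at 24 hours and for input at 2 weeks, and within the input set of unprefixed columns at 24 hours, where the fit holds 3 libraries with 1 PBS mouse. The cause was not tested. The fit of input at 24 hours without its only PBS library could not be made. Over all genes the tools differed widely: DESeq2 called 156, 15, 201 and 113 genes and voom 1120, 2, 1076 and 342 in m6A at 24 hours and 2 weeks and in input at 24 hours and 2 weeks, where edgeR called 1, 0, 0 and 0. DESeq2 called 739 genes for m6A against input where edgeR called 170, and 57 were called with the mouse as a replicate block, which moved the clock genes called from 0 to 0 there and in the change of m6A over input. The number of Arntl pairs past the threshold was 0 in each setting tried, although library size scaling moved Per2 from r = -0.35 to 0.11. Within-set fits, the fit of the PBS groups alone, and the tests of spread and of the same mouse were chosen after seeing the data.

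Of 430 log2 fold changes of members under other settings, 384 kept their sign and side of the threshold, 3 (Per2) passed it and 43 changed sign. None of those 43 was called in either fit, and the cause was not tested. When each library was left out in turn, 26 of 80 pairs of member and comparison took values of both signs, and none was called. With voom the turned values were Clock 0.14, Nr1d2 0.13 and Cry1 -0.086 in m6A at 24 hours, Per2 0.31 and Arntl -0.015 in m6A at 2 weeks, Cry2 0.15 in input at 24 hours and Arntl 0.055 in input at 2 weeks. Blocking on the library set gave Clock 0.18, Nr1d2 0.15 and Cry1 -0.11 in m6A at 24 hours, Per2 0.22, Arntl -0.047, Clock -0.13, Nr1d1 0.33 and Dbp 0.039 in m6A at 2 weeks, Cry2 0.012 in input at 24 hours, Dbp 0.22 in input at 2 weeks and Per1 0.022 in PBS mice between times. Within set 4 the turned values were Clock 0.18, Nr1d2 0.15 and Cry1 -0.12 in m6A at 24 hours and Nr1d2 -0.027 in PBS mice between times. With library size scaling the turned values were Nr1d1 0.024 in m6A at 24 hours, Cry1 -0.10 in input at 24 hours, Cry1 -0.087 in the m6A interaction with time and Arntl 0.17 and Nr1d2 0.14 in m6A against input. Within set 5 the turned values were Per2 0.24, Arntl -0.033, Clock -0.11, Nr1d1 0.35 and Dbp 0.059 in m6A at 2 weeks. With all 7 input libraries of 24 hours the turned values were Clock 0.025 in input at 24 hours. Within the input set of unprefixed columns the turned values were Cry2 0.13 in input at 24 hours and Dbp 0.23 in input at 2 weeks. Without a filter the turned values were Arntl 0.00109 in input at 2 weeks. With the mouse as a replicate block the turned values were Arntl 0.019, Clock 0.010, Nr1d1 -0.13, Nr1d2 0.16 and Cry2 -0.28 in m6A against input and Nr1d2 -0.078 and Cry2 0.29 in the change of m6A over input.

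With 1 to 6 mice per group, a difference between members that missed the threshold is not shown to be absent. The library set and the mice in it cannot be told apart, the hour of collection is unknown, and the lowest counts, such as 13 for Cry1 in 1 library, limit what that mouse can show.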
